A study of Homo sapiens with 6 samples.

Results

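Keratins are the intermediate filament proteins of epithelial cells. The genes described here are 10 keratins, KRT6A, KRT7, KRT8, KRT16, KRT17, KRT18, KRT19, KRT80, KRT81 and KRT86, out of 41471 gene symbols in the count table of the CDK16 knockdown experiment and 34157 in that of the rebastinib experiment. They were chosen by measured values, namely the higher KRT16 counts after rebastinib, so their rebastinib values are a description and were not tested. RNA sequencing was done in MDA-MB-231, an established line of triple-negative breast cancer (TNBC), a form of breast cancer that lacks the estrogen and progesterone receptors and amplified HER2. In the knockdown experiment, cells carried a stably integrated lentivirus with a scramble shRNA, the control, or with 1 of the hairpins CDK16-sh1 and CDK16-sh2, which target the atypical cyclin-dependent kinase CDK16. In the rebastinib experiment, cells received the vehicle DMSO or rebastinib (Reb), a kinase inhibitor that the study used against CDK16, at 1 μM or 5 μM for 48 h. Each of the 6 conditions had 1 library, so no difference between a pair of libraries has a replicate check.

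A keratin filament is built from equal parts of a type I (acidic) and a type II (basic) keratin, and neither type makes a filament alone. KRT8 (type II) and KRT18 (type I) are the main pair of simple, single-layered epithelia, and KRT7 (type II) and KRT19 (type I) accompany them in glandular and ductal cells, the breast included. KRT6A (type II), KRT16 and KRT17 (both type I) are known as stress keratins of the epidermis, which keratinocytes make after wounding. KRT81 and KRT86 are type II keratins of hair. KRT80 is a type II keratin of many epithelia, found near desmosomes, the junctions on which keratin filaments are anchored. Of the members, 6 are thus type II and 4 are type I.

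The libraries held 25838443, 31955119 and 27499155 counts for scramble shRNA, CDK16-sh1 and CDK16-sh2, and 50303269, 49367654 and 37655548 counts for DMSO, 1 μM and 5 μM Reb. CDK16 itself had 3223, 1360 and 846 counts in the knockdown experiment, 2.87-fold and 3.53-fold below scramble shRNA. The Reb 5 μM library stood apart. Its mitochondrial transcripts took 16.4% of the counts against 7.19% with DMSO, and the 100 most abundant genes took 35.3% against 24.3%. CDK16-sh2 stood apart in the same measures to a smaller degree, with 16.2% and 31.3% against 11.3% and 25.8% for scramble shRNA. The part of these shifts in the keratin values was not tested.

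The label of the line as mesenchymal-like was checked against marker genes. Vimentin (VIM), the intermediate filament of mesenchymal cells, had 177.3 to 832.9 RPKM (read counts per unit of transcript length, scaled to library size) over the 6 libraries, and CDH1, the cadherin of epithelial junctions, had at most 0.174. The 9 mesenchymal-like markers summed to 357.5 to 1068 RPKM, most of it from VIM and AXL together in every library. CDH2 and TWIST1 were near 0 in every library, and SPARC had at most 0.112 RPKM in the knockdown libraries. The 10 luminal markers summed to 18.6 to 50.1 RPKM with ESR1 and PGR near 0, and the 6 basal markers to 6.24 to 30.6 RPKM with KRT5 and TP63 near 0. Of the 9 blood and endothelial markers, CD68, a lysosomal gene, made up nearly the whole sum of 106.9 to 235.1 RPKM, while PTPRC, CD3E and VWF were near 0. In bulk RNA, fewer cells with a transcript and less transcript per cell cannot be told apart.

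Keratins resemble each other, so the reads of close relatives have to be kept apart before their values are compared. Of all stretches of 100 bases in 1 annotated coding transcript per gene (GENCODE 29, GRCh38), 30.3% of those of KRT81 and 28% of those of KRT86 also occurred in another gene, mostly in each other. For KRT6A this share was 18.2%, shared with KRT6B and KRT6C, for KRT8 it was 7.56%, shared with KRT8 pseudogenes, and for KRT16 it was 7.18%, shared with KRT14 and KRT16 pseudogenes. KRT17 shared 0.322%, and KRT7, KRT18, KRT19 and KRT80 shared none. The coding sequences of KRT81 and KRT86 were 94.2% identical, with one identical stretch of 605 bases. Those of KRT16 and KRT17 were 81.2% identical, with a longest identical stretch of 61 bases.

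The following sequences are the 60-base window within one coding exon where KRT16 and KRT17 differ most, shown because it is where a read tells these relatives apart. Capitals mark the 20 bases that differ within the pair. KRT16 (exon 5) lies at chr17:41610886-41610945 and KRT17 (exon 5) at chr17:41620998-41621057, both on the minus strand.
KRT16: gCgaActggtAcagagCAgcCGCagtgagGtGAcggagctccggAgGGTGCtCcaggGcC
KRT17: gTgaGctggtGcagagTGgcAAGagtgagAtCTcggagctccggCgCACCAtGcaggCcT
KRT81 and KRT86 are closer to each other than this pair, so the counts of KRT86, the weaker of them, are uncertain to the extent that reads of KRT81 were assigned to it. How the deposited counting treated reads that match several genes is not given in the sources used here.

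The level of a keratin is given per length, as the authors' RPKM, with a 95% exact interval (Clopper-Pearson) on the counts where the counts are few. Such intervals cover counting error only, since no molecular identifiers are named in the sources used here and reads need not come from separate molecules. With scramble shRNA, the order of levels was KRT8 (175.4 RPKM), KRT7 (150.3), KRT19 (142.5), KRT18 (116.0), KRT81 (70.2), KRT80 (24.4), KRT86 (2.94), KRT17 (0.503), KRT16 (0.266) and KRT6A (0 counts, where 3 counts would be 0.0397 RPKM). KRT7 led with CDK16-sh1 at 225.5 RPKM, and KRT19 led with CDK16-sh2 at 129.8. In all 3 libraries of the Reb experiment KRT81 led, at 472.6, 446.8 and 805.2 RPKM, with KRT8 next. The ratio of neighbours in these orders had an exact counting interval that included 1 in 2 of 54 pairs, both with CDK16-sh2. These were KRT18 over KRT8, at 1.02 (0.993 to 1.05), and KRT17 over KRT16, at 2.32 (0.969 to 6.12). KRT86 and KRT80 changed places at 5 μM Reb, where KRT16 and KRT17 stood above both.

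**Figure D1:**
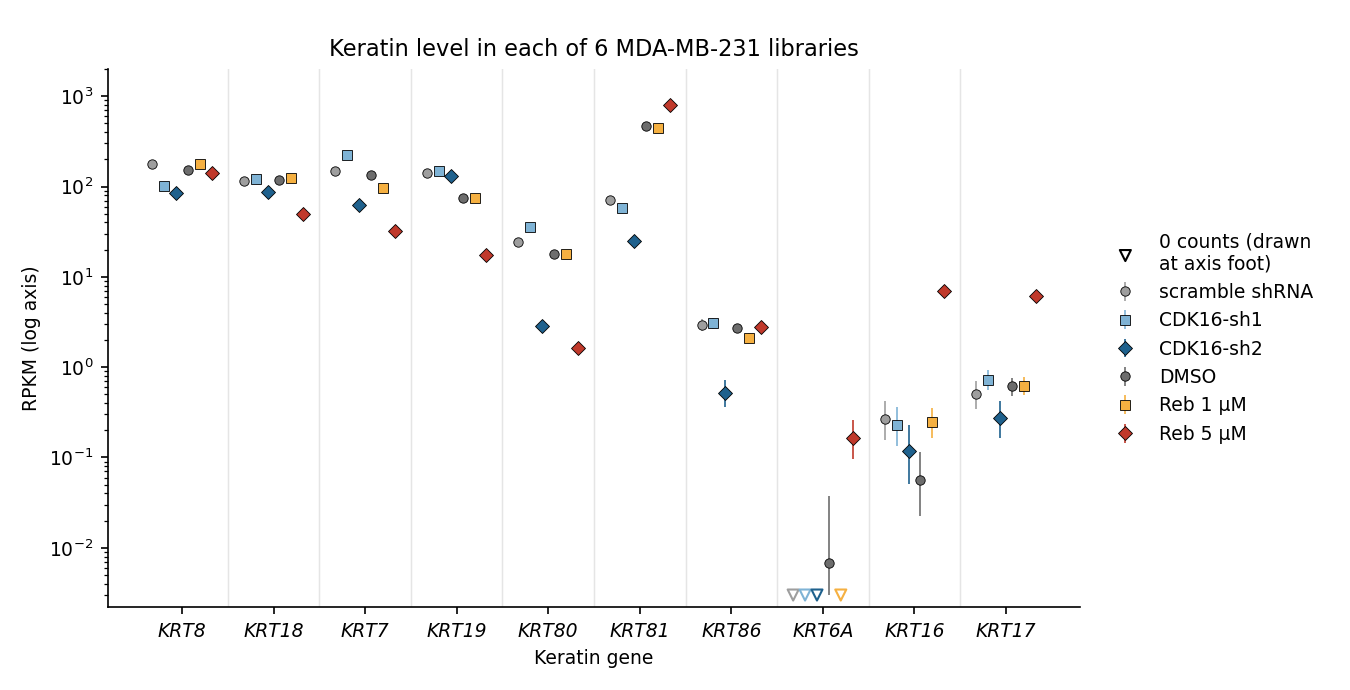
Level of each keratin (RPKM, log axis) in the 6 libraries, 1 point per library, with bars for the 95% exact counting interval and open triangles for 0 counts. KRT80 drops with CDK16-sh2 and with 5 μM Reb, to 2.83 and 1.62 RPKM, and KRT16 and KRT17 stand at 7.05 and 6.07 RPKM with 5 μM Reb, above their level in every other library.

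The simple-epithelial keratins were the bulk of the keratin signal in the knockdown experiment, and they did not move together. In the Reb experiment KRT81 alone held 48.6%, 47.5% and 75.8% of the members' RPKM with DMSO, 1 μM and 5 μM. KRT8 had 175.4, 102.3 and 85.8 RPKM with scramble shRNA, CDK16-sh1 and CDK16-sh2, so both hairpin libraries were lower. Its log2 fold change, computed after TMM scaling (a correction for a few genes taking a large share of a library), was -0.75 (counting interval -0.77 to -0.72) for CDK16-sh1 and -0.83 (-0.86 to -0.81) for CDK16-sh2. It was the one member below its control by more than 1.5-fold with both hairpins. With DMSO, 1 μM and 5 μM Reb, KRT8 had 150.8, 179.5 and 139.7 RPKM and log2 fold changes of 0.20 and 0.58. The RPKM at 5 μM is below that of DMSO and the TMM-scaled change is above 0, and scaling by library totals gave -0.11, so the direction of KRT8 at 5 μM depends on the scaling.

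KRT18, the partner of KRT8, had 116.0, 120.6 and 87.5 RPKM in the knockdown experiment, with log2 fold changes of 0.09 and -0.21. It had 118.3, 124.0 and 49.7 RPKM in the Reb experiment, with 0.02 at 1 μM and -0.56 (-0.60 to -0.52) at 5 μM. Relative to its partner, the ratio of KRT8 to KRT18 in RPKM was 1.51, 0.848 and 0.981 with scramble shRNA and the hairpins, and 1.27, 1.45 and 2.81 with DMSO and the doses of Reb. The ratio was thus lower than its control with both hairpins and highest at 5 μM Reb. KRT8 and KRT18 are neighbours on chromosome 12 whose annotated exons overlap on opposite strands by 525 bases. The strand setting of the deposited counts is not given in the sources used here, so reads in that overlap cannot be told apart.

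KRT7 moved in opposite directions with the hairpins. It had 150.3, 225.5 and 63.2 RPKM with scramble shRNA, CDK16-sh1 and CDK16-sh2, so the hairpin libraries lay on either side of the control. Its log2 fold change was 0.62 (0.59 to 0.64) for CDK16-sh1 and -1.05 (-1.09 to -1.01) for CDK16-sh2, and CDK16-sh2 was 3.18-fold below CDK16-sh1. In the Reb experiment KRT7 was lower at each higher dose, with 135.5, 96.0 and 32.1 RPKM and log2 fold changes of -0.55 and -1.39. An antisense gene that overlaps 282 bases of KRT7 exons, RP3-416H24.1, had 4745, 9417 and 1917 counts in the knockdown experiment and 8901, 5520 and 1568 in the Reb experiment, the same order as KRT7 in each. Without the strand setting, reads in that overlap cannot be told apart either.

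KRT19, a type I keratin without a tail domain, differed little across the knockdown experiment. It had 142.5, 146.8 and 129.8 RPKM and log2 fold changes of 0.07 and 0.06. With Reb it had 73.9, 73.9 and 17.5 RPKM, a log2 fold change of -0.05 at 1 μM and -1.39 (-1.47 to -1.31) at 5 μM. Only the library at 5 μM was low.

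KRT80 had the lowest fold change of the members with CDK16-sh2 and with 5 μM Reb. It had 24.4, 35.5 and 2.83 RPKM with scramble shRNA, CDK16-sh1 and CDK16-sh2, from 2737, 4938 and 339 counts. It was above the control with CDK16-sh1, by a log2 fold change of 0.57 (0.51 to 0.64), and below it with CDK16-sh2, by -2.90 (-3.07 to -2.74), a 7.46-fold difference. With CDK16-sh2, 27 of 15295 genes tested had a lower fold change than KRT80. In the Reb experiment it had 17.9, 17.7 and 1.62 RPKM, from 3909, 3808 and 266 counts. It was near its control at 1 μM (-0.06) and lower at 5 μM by -2.76 (-2.95 to -2.59), with 637 of 15655 genes lower. KRT7 and KRT80 stood in a ratio of 6.17 and 6.35 with scramble shRNA and CDK16-sh1 and of 22.3 with CDK16-sh2. That ratio was 7.58, 5.41 and 19.8 in the Reb experiment.

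The hair keratins were both lower with CDK16-sh2, and KRT81 was higher at 5 μM Reb. KRT81 had 70.2, 58.5 and 25.2 RPKM in the knockdown experiment, with log2 fold changes of -0.23 and -1.28 (-1.37 to -1.19). It had 472.6, 446.8 and 805.2 RPKM in the Reb experiment, with -0.13 at 1 μM and 1.46 (1.44 to 1.48) at 5 μM. At 5 μM, 52 of all genes in the table had a higher RPKM. KRT86 was far weaker, with 182, 233 and 34 counts and then 326, 251 and 251. Its log2 fold change was 0.08 for CDK16-sh1, -2.26 (-2.89 to -1.78) for CDK16-sh2, -0.40 at 1 μM and 0.73 (0.49 to 0.97) at 5 μM Reb, which scaling by library totals brought to 0.04. The ratio of KRT81 to KRT86 in RPKM was 19.2 to 48.8 in the knockdown experiment and 175 to 289 in the Reb experiment, so the ratio was not constant within either experiment.

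The stress keratins were at the lower end of detection except at 5 μM Reb. KRT16 had 17, 18 and 8 counts with scramble shRNA, CDK16-sh1 and CDK16-sh2, under the filter of a mean of 1 CPM (the count scaled to a common library size), and no difference was detectable at this depth: the counting interval of its log2 fold change ran from -1.23 to 0.85 for CDK16-sh1 and from -2.40 to 0.31 for CDK16-sh2. In the Reb experiment it had 7, 30 and 657 counts, or 0.0562 (0.0226 to 0.116), 0.246 (0.166 to 0.351) and 7.05 (6.52 to 7.61) RPKM. It passed the filter there only through the 5 μM library. The log2 fold changes, which chose the members, were 1.76 (0.86 to 3.51) at 1 μM and 7.23 (6.61 to 8.98) at 5 μM. With so few counts in the control they depend on the pseudocount, and the authors' RPKM with 0.1 added gave 1.15 and 5.52. Of 15655 genes tested, 20 were higher at 1 μM and 21 at 5 μM. The KRT16 pseudogenes of the table summed to 4, 8 and 2 counts.

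KRT17 had 33, 59 and 19 counts in the knockdown experiment, with log2 fold changes of 0.54 (-0.08 to 1.22) and -0.64 (-1.59 to 0.17), whose intervals both include 0. In the Reb experiment it had 78, 78 and 580 counts, a log2 fold change of -0.02 (-0.50 to 0.45) at 1 μM and 3.96 (3.66 to 4.36) at 5 μM. Both KRT16 and KRT17 were thus far higher at 5 μM, and at 1 μM the interval of KRT16 lay above 0 and that of KRT17 included it. Their ratio, KRT17 over KRT16 in RPKM, went from 10.9 with DMSO to 2.54 and 0.861 with the doses. KRT17 pseudogenes summed to 11, 9 and 28 counts, of which KRT17P1 had 0, 2 and 15.

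KRT6A, the type II keratin that pairs with KRT16 and KRT17 in the epidermis, had 0 counts in all 3 knockdown libraries and 1, 0 and 18 counts with DMSO, 1 μM and 5 μM Reb. It stayed under the filter in both experiments. The counting interval of its log2 fold change at 5 μM was 2.62 to 10.7, and its level was 0.163 RPKM, 43.2 times below that of KRT16.

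**Figure D2:**
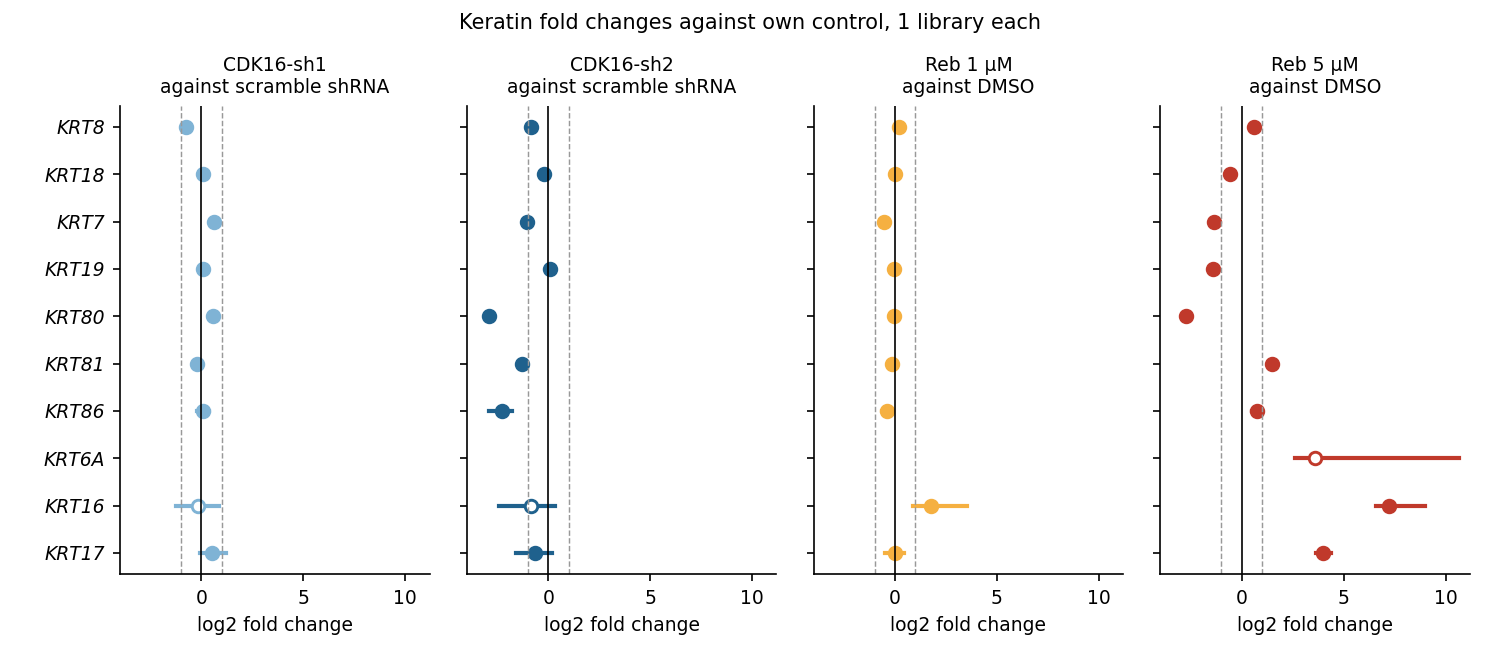
Log2 fold change of each keratin in each treated library against its own control (TMM-scaled, prior count of 2), with bars for the 95% exact counting interval, open points for genes under the filter of 1 CPM and dashed lines at 2-fold. The hairpins share a control and so do the doses. KRT80 lies at -2.90 with CDK16-sh2 and -2.76 with 5 μM Reb, and KRT16 at 7.23 with 5 μM Reb. KRT6A is drawn only where it had at least 3 counts.

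In the knockdown experiment, the keratins were mostly lower with CDK16-sh2 and showed no 2-fold difference with CDK16-sh1. Of the 8 members tested (those with a mean of at least 1 CPM), 0 were at least 2-fold lower and 0 at least 2-fold higher with CDK16-sh1, where 6.86% and 4.33% of all 15295 genes were. With CDK16-sh2, 4 were lower (KRT7, KRT80, KRT81 and KRT86) and 0 higher, where 7.62% of all genes were lower and 2.2% higher. The median log2 fold change of the members was 0.08 with CDK16-sh1 and -0.94 with CDK16-sh2, beside -0.00184 and 0.0184 over all genes tested. The type II members had a median of -1.28 with CDK16-sh2 and the type I members -0.21. Between the hairpins, 5 members were at least 2-fold lower with CDK16-sh2 than with CDK16-sh1, KRT17 being the fifth, and 0 were higher, where 8.68% and 6.53% of all genes were.

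The hairpins can be tested together against the scramble library, with their difference as the spread. In the quasi-likelihood test of edgeR, adjusted by Benjamini-Hochberg, 0 of the 8 members and 0% of the 15295 genes passed an adjusted p of 0.05 with a fold change of at least 2. At an unadjusted p under 0.05 there were 382 genes and 0 members, and the smallest p of a member was 0.134, for KRT8, with a log2 fold change of -0.79 and an edgeR adjusted p of 1.0. DESeq2 also called 0 genes, with 233 at an unadjusted p under 0.05. The targeted CDK16 was not called either (log2 fold change -1.66, edgeR adjusted p of 0.804), so a call of 0 says little about the keratins. The differences between the hairpins in KRT7 and KRT80, which lay on opposite sides of the control, enter this test as spread.

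The fold changes with CDK16-sh1 followed the GC content of the transcripts over all genes (r = 0.478, over the 84.6% of genes with a known GC content, as a description since genes are not independent), and the members have 55.7% to 62.9% GC. Taken against genes of like GC content, an alternative chosen after the data were seen, KRT8 with CDK16-sh1 was at -1.03 and KRT7 at 0.18, while with CDK16-sh2 the same 4 members stayed past 2-fold.

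In the Reb experiment, KRT16 was the one keratin past 2-fold at 1 μM, and at 5 μM about as large a share of the keratins as of all genes was past 2-fold in each direction. Of the 9 members tested, 0 were at least 2-fold lower at 1 μM and 1 was higher, KRT16, where 1.92% and 1.28% of all 15655 genes were. At 5 μM, 3 were lower (KRT7, KRT19 and KRT80) and 3 higher (KRT16, KRT17 and KRT81), where 27.2% and 23.6% of all genes were, and the rule that chose the members used this contrast. Their median was 0.58 beside -0.07 over all genes tested. Between the doses, 2 members were lower at 5 μM than at 1 μM (KRT19 and KRT80) and 4 were higher (KRT16, KRT17, KRT81 and KRT86), where 25.8% and 22.8% of all genes were.

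These counts at 5 μM depend on how the library was scaled. Its TMM factor was 0.718 against 1.16 for DMSO, and scaling by library totals instead shifted the median of all genes by -0.683, which turned 4254 lower and 3695 higher genes into 6792 and 1835. Under that scaling 4 members were lower, KRT18 among them at -1.25, and 2 were higher, with KRT81 at 0.77. Against genes of like GC content, KRT7 and KRT19 were both at -0.73 and KRT8 and KRT86 at 1.04 and 1.39, so that 1 member was lower and 5 were higher. KRT16, KRT17 and KRT80 kept their side of 2-fold in each of these.

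**Figure D3:**
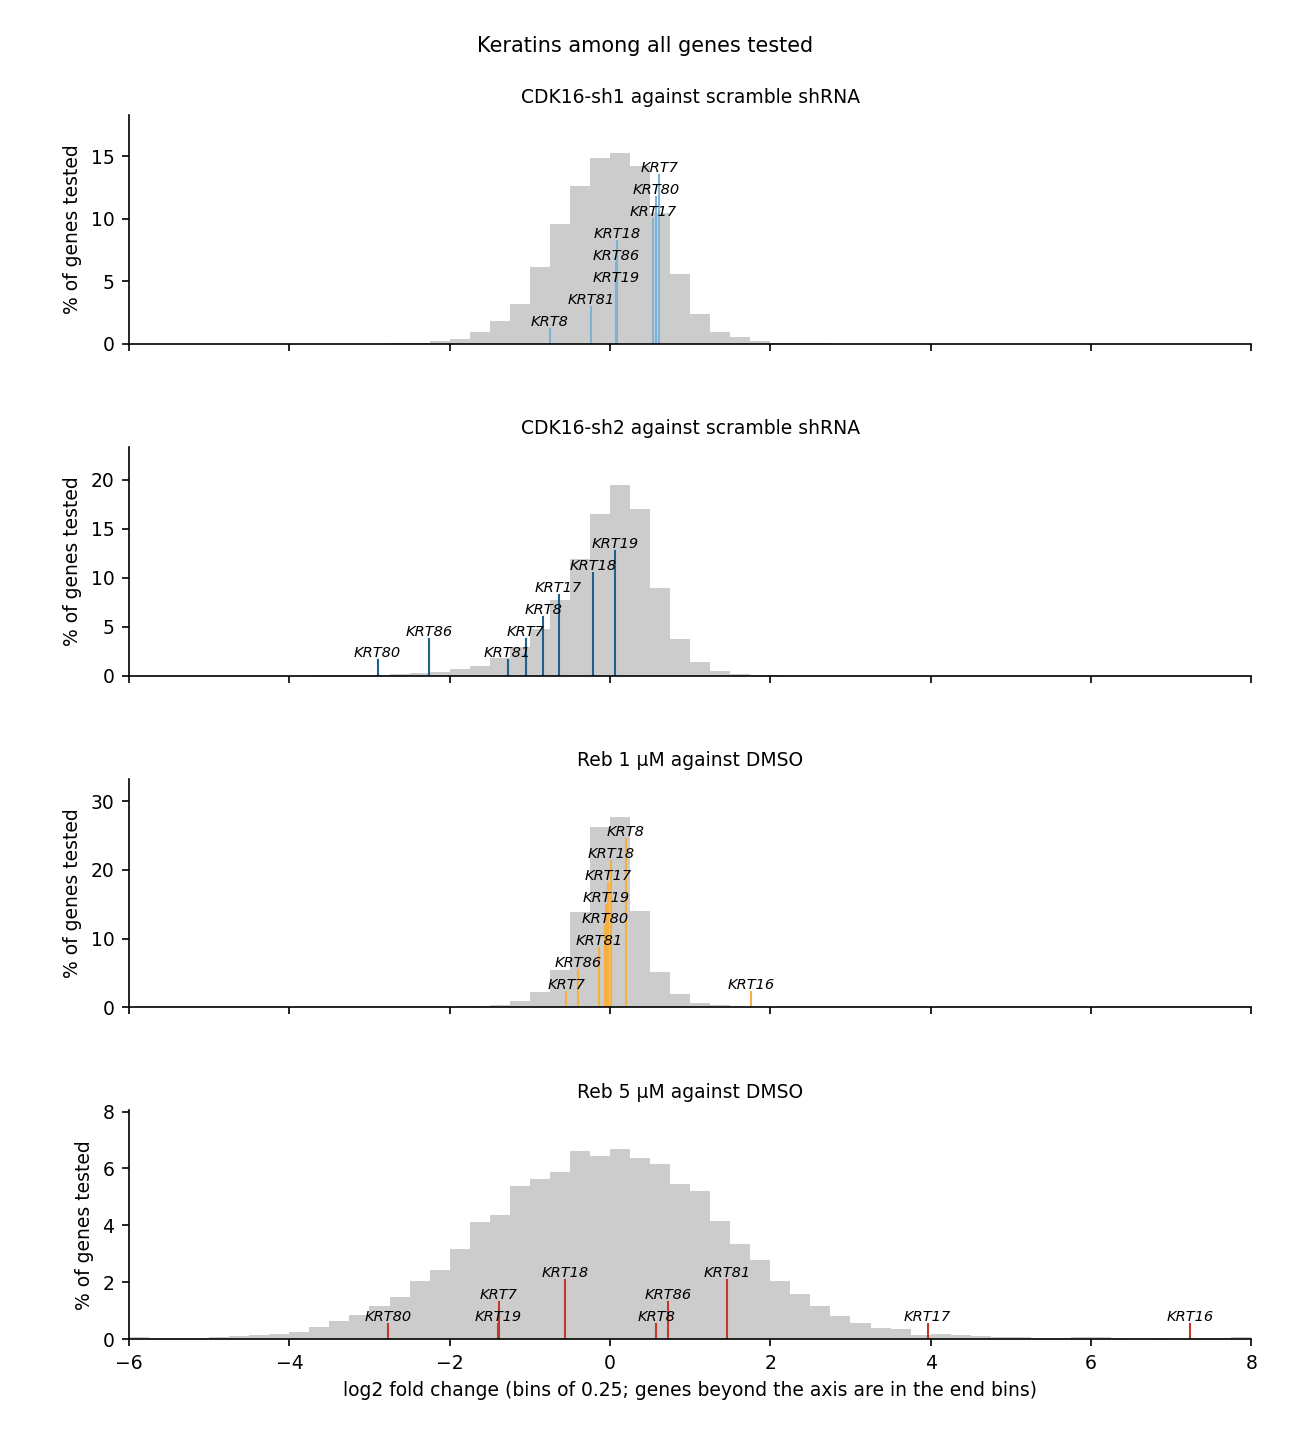
Log2 fold changes of all genes tested (grey bars, percent of genes per bin of 0.25) with the keratins that passed the filter marked by lines, whose height carries no value. With CDK16-sh2, 7 of the 8 keratins tested lie below 0. At 5 μM Reb the whole distribution is wide, and KRT16 at 7.23 and KRT17 at 3.96 lie in its right tail.

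The make-up of the keratin signal differed between libraries. Its size is given as summed RPKM, scaled to library totals, and depends on that scaling. The TMM factor was 1.16 for DMSO and 0.718 for 5 μM Reb. The members summed to 682.4, 693.2 and 395.2 RPKM in the knockdown experiment and to 972.3, 940.9 and 1062 RPKM in the Reb experiment, and they made up 95.7% to 98.7% of the summed RPKM of all keratin genes in each library. As a share of all counts they were 0.15% to 0.315%. Type II over type I members stood at 1.63 and 1.58 with scramble shRNA and CDK16-sh1 and at 0.816 with CDK16-sh2, the one library with more type I than type II signal. In the Reb experiment the ratio was 4.04 in the DMSO library, 3.73 with the lower dose and 12.2 with the higher, where KRT81 alone held 75.8% of the members' RPKM. KRT8, KRT18, KRT7 and KRT19 each held a smaller share at 5 μM than with DMSO, for instance KRT7 with 3.02% against 13.9% and KRT18 with 4.68% against 12.2%. KRT16 and KRT17 held 0.664% and 0.572% there. These are transcript levels, and protein was not measured here.

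**Figure D4:**
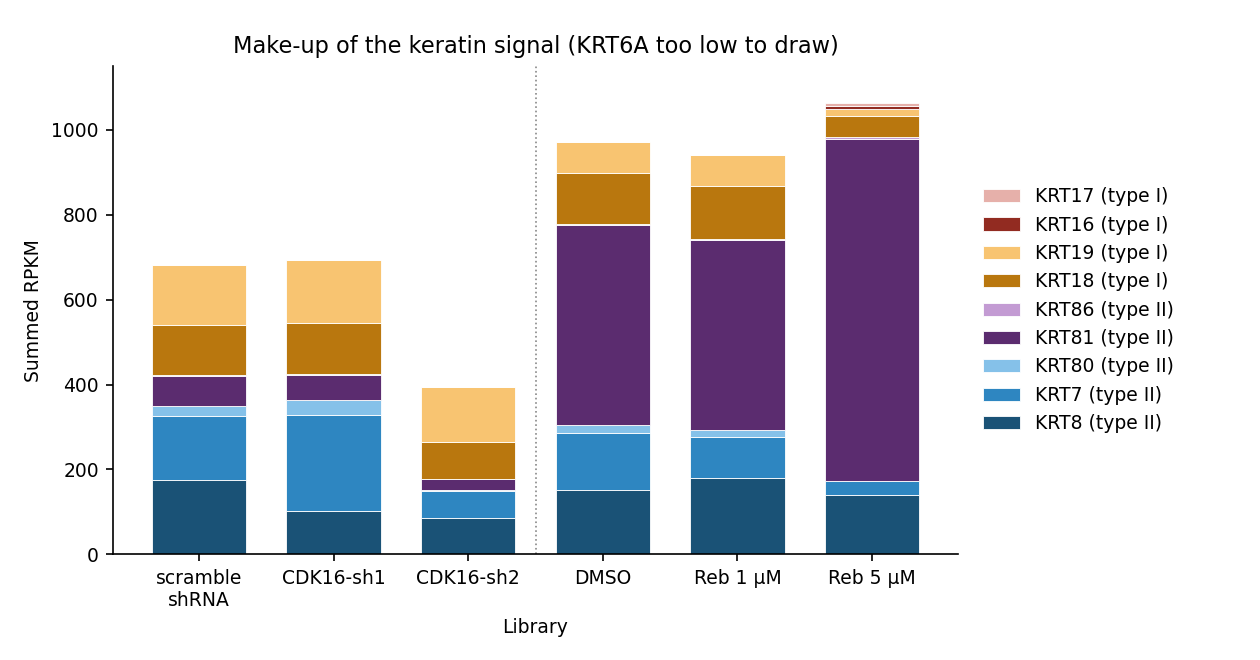
Summed RPKM of the keratins in each library, split by gene, with type II keratins below and type I keratins above and a dotted line between the experiments. KRT81 holds 10.3% of the sum with scramble shRNA, 48.6% with DMSO and 75.8% with 5 μM Reb.

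The controls of the experiments differed from each other in some keratins. KRT81 was higher with DMSO than with scramble shRNA by a log2 difference of 2.86, with 341 of 15735 genes higher still. The difference was -1.77 for KRT16, from 17 counts with scramble shRNA and 7 with DMSO, and -0.84 for KRT19. The other members lay between -0.34 and 0.43, and 25.1% of all genes differed by at least 2-fold between the controls. For these differences all 6 libraries were put on one TMM scale over the gene symbols shared by both experiments. The experiments differ in the lentivirus and the vehicle, so what sets these levels apart cannot be told apart here. All other fold changes of members were scaled and taken only within an experiment.

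Other keratin genes were mostly at few counts. The knockdown table held 55 keratin genes, of which 12 passed the filter and 19 had 0 counts throughout, and the Reb table held 40, of which 16 passed and 2 had 0 counts throughout. Of the 7 others that passed in the Reb experiment, 6 were at least 2-fold higher at 5 μM, where 23.6% of all genes were, and 0 lower, and at 1 μM 0 passed 2-fold. The filter sets part of this count, since 3 of the 6 (KRT14, KRT33B and KRT34) passed only through the 5 μM library. KRT222, with 64, 72 and 4 counts, and KRT79, with 59, 50 and 0, went the other way and stayed under the filter. KRT14, the type I keratin of basal cells, had 26, 53 and 91 counts and 2.81 (2.27 at the lower end of the interval). Hair keratins were higher too, with KRT33B at 3.44, KRT34 at 2.80, KRT83 at 1.61 and KRT85 at 1.60, and KRT10, a keratin of differentiating epidermis, was at 1.85. KRT15, another basal type I keratin, was at -0.70. These values are TMM-scaled, and the counts past 2-fold depend on that scaling. In RPKM, scaled to library totals, KRT83 had 0.763 with DMSO and 1.47 at 5 μM, and KRT85 had 0.623 and 1.19, both under 2-fold. KRT15 had 1.81 and 0.690 RPKM, which is past 2-fold lower. KRT5, the type II partner of KRT14, and KRT12 stayed under the filter, with 1, 0 and 23 counts and 3, 10 and 94 counts. KRT16 shares stretches of sequence with KRT14, and the ratio of KRT14 to KRT16 in RPKM went from 4.03 with DMSO to 0.15 at 5 μM.

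With the hairpins, 4 other keratins could be measured. KRT15 was on opposite sides, with 386, 199 and 628 counts and log2 fold changes of -1.22 and 0.81. KRT10 had 1122, 1826 and 549 counts and log2 fold changes of 0.43 and -0.92, so it was higher with CDK16-sh1 and lower with CDK16-sh2, as KRT7 and KRT80 were. KRT14 was at -0.31 and 0.05 and KRT34 at 0.21 and 0.36. Pseudogenes named for KRT8 held 1.27% to 3.09% of its counts and those named for KRT18 held 0.375% to 5.71%, with the highest shares at 5 μM Reb. For KRT16 and KRT17, whose own counts were few, the shares were highest with DMSO, at 57.1% and 14.1%, and were 0.304% and 4.83% at 5 μM.

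**Figure D5:**
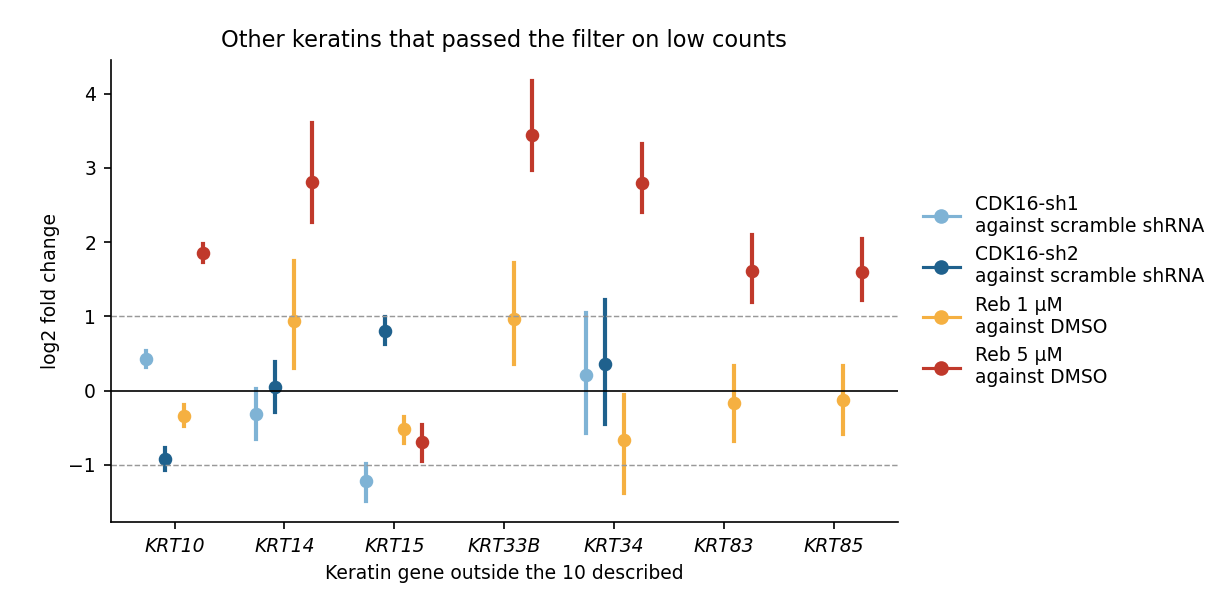
Log2 fold change (TMM-scaled) of the 7 keratin genes outside the 10 that passed the filter in an experiment, with bars for the 95% exact counting interval and dashed lines at 2-fold. At 5 μM Reb 6 of them lie above 1, from 1.60 to 3.44, of which 3 passed the filter only through that library, and KRT15 lies at -0.70.

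Keratin filaments end at desmosomes and hemidesmosomes and are bundled by plakins. Of the desmosome and plakin genes, 13 were tested in the knockdown experiment, of which 1 was at least 2-fold lower with each hairpin and 0 higher, with medians of -0.33 and -0.28. That gene was DSG2, a desmosomal cadherin, with 1871, 1023 and 780 counts and -1.15 in both. At 5 μM Reb, 5 of 14 were lower and 1 higher, with a median of -0.53, where 27.2% of all genes were lower and 23.6% higher, and at 1 μM none passed 2-fold. Envoplakin (EVPL), a cross-linker of the cornified envelope, had 12482, 11712 and 807 counts and -2.84 at 5 μM. Periplakin (PPL) was at -2.21 and plakoglobin (JUP), a desmosomal plaque protein, at -1.77, while PERP, a desmosomal membrane protein, was at 2.04. Of the 6 hemidesmosome genes, ITGA6 was at -1.67 with CDK16-sh1 and near the control with CDK16-sh2 (0.004), and ITGB4, its partner integrin, was at -2.20 at 5 μM Reb. The hemidesmosome medians were -0.34 and -0.22 with the hairpins and -0.06 and -0.36 with the doses, with 1, 0, 0 and 1 genes at least 2-fold lower and 0 higher. For both lists, the shares over all genes tested were 6.86%, 7.62%, 1.92% and 27.2% lower in that order. Those higher were 4.33%, 2.2%, 1.28% and 23.6%.

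Of the other intermediate filament genes, 5 and 6 of 7 were below their control with the hairpins, 3 of 6 at 1 μM and 6 of 6 at 5 μM Reb. The median over all genes tested was -0.00184 and 0.0184 with the hairpins and 0.00163 and -0.07 with the doses. Of the 7 tested, 2 were at least 2-fold lower with each hairpin, and of the 6 tested, 3 were lower at 5 μM Reb and 0 at 1 μM, with medians of -0.74, -0.37, -0.79 and -0.02 in that order of libraries and 0 higher in each. Over all genes tested, 6.86%, 7.62%, 27.2% and 1.92% were lower in the same order. The shares higher were 4.33%, 2.2%, 23.6% and 1.28%. SYNM (synemin) was at -1.42 and -0.68 with the hairpins and at -2.69 at 5 μM. NES (nestin) was at -0.74 and -1.95 and at -2.25. LMNB1, a nuclear lamin, was at -1.38 and -0.29 and at -1.04. VIM was at -0.68 at 1 μM and -0.30 at 5 μM.

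Genes of the cornified envelope and squamous differentiation, the setting in which KRT6A, KRT16 and KRT17 are best known, were largely under the filter, with 5 tested in each experiment. With CDK16-sh1 1 was lower and 1 higher, with CDK16-sh2 1 was lower, at 1 μM 1 was lower, and at 5 μM 1 was lower and 2 were higher. SFN (stratifin), a marker of squamous cells, had 15652, 18825 and 55349 counts with DMSO, 1 μM and 5 μM, a log2 fold change of 2.93 at 5 μM, and CNFN (cornifelin) was at 2.11 from 36 and 76 counts. FLG (filaggrin) was lower with CDK16-sh2 by -3.21 and at 5 μM by -2.54. The medians were -0.35, 0.22, 0.24 and 0.51. Over all genes tested, 6.86% and 7.62% were at least 2-fold lower with the hairpins and 1.92% and 27.2% with the doses. The shares higher were 4.33% and 2.2% with the hairpins and 1.28% and 23.6% with the doses.

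Of the epithelial transcription factors, 7 were tested in each experiment. With CDK16-sh2 1 was at least 2-fold lower, EHF at -1.19, and with CDK16-sh1 and at 1 μM none passed. At 5 μM 1 was lower, TFAP2C at -2.09, and 2 were higher, GRHL1 at 2.79 from 36 and 122 counts and KLF5, a factor of proliferating epithelia, at 1.57. KLF5 was at -0.88 and -0.78 with the hairpins. The medians were -0.55, -0.48, -0.17 and 0.36. The shares of all genes tested at least 2-fold lower were 6.86% and 7.62% with the hairpins and 1.92% and 27.2% with the doses. Those higher were 4.33%, 2.2%, 1.28% and 23.6% in that order.

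Marker genes of cell types are given at 5 μM Reb, where the shares over all genes were 27.2% lower and 23.6% higher. Of the 4 basal markers tested, 3 were lower and 1 higher (KRT14), with EGFR at -1.88. Of the 5 luminal markers tested, 2 were lower and 1 higher, EPCAM at 1.86. Of the 7 mesenchymal-like markers tested, 1 was lower and 1 higher, SNAI2 at 2.93. Their summed levels at 5 μM against DMSO were 6.24 against 30.6, 18.6 against 50.1 and 357.5 against 541.1 RPKM. These sums are scaled to library totals, whereas the fold changes are TMM-scaled, with factors of 0.718 for 5 μM and 1.16 for DMSO. The size of each difference between the sums depends on that scaling, and for the mesenchymal-like markers so does its direction. The part of these markers in the keratin values was not tested.

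The genes whose 4 log2 fold changes against their own control lay nearest to those of KRT16, among 15648 genes in both tables, were EEF1DP7 at a Euclidean distance of 0.538, RP11-294J22.7 at 0.789, RP5-849H19.2 at 1.32, RP11-119H12.4 at 1.34 and RNU11 at 1.35. None of the 5 is a keratin. All were at 0 to 4 counts in each knockdown library and with DMSO, at 2 to 12 counts at 1 μM and at 124 to 300 counts at 5 μM, fewer than KRT16 in each. As KRT16 did, they passed the filter of 1 CPM only through the 5 μM library. The search used the KRT16 values that chose the members, so this nearness is a description. The knockdown counts are too few to add to it. EEF1DP7 had 2, 12 and 239 counts in the Reb experiment. Ranked by correlation instead, none of the 5 stayed among the nearest 5, so the likeness is in the size of the change at 5 μM and rests on few counts elsewhere.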

How the data were processed

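RNA-seq of 6 MDA-MB-231 libraries was analysed from the tables deposited by the authors. The deposited count tables hold whole-number read counts per gene symbol, without normalization, and the deposited RPKM tables hold these counts per gene length and library total. The submitters' processing notes name Trimmomatic, featureCounts and Subread 1.5.1 with GRCh38, and the aligner and strand setting are not given in the sources used here.

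Single libraries were compared as log2 fold changes of TMM-scaled CPM (edgeR 4.0.16 in R 4.3.3, prior count 2), and genes averaging under 1 CPM in an experiment were left out, which kept 15295 and 15655 genes. The study's methods set the 2-fold threshold. With 1 library per condition no test was made for single comparisons, and exact Clopper-Pearson intervals at 95% (scipy 1.17.1) cover counting error only. Both hairpins together were tested against the scramble library with edgeR's quasi-likelihood test, Benjamini-Hochberg adjusted, with DESeq2 1.42.0 as an alternative. The scripts were tested on simulated data. Sequences and shared 100-base stretches came from GENCODE 29 transcripts, aligned with Biopython 1.88.

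The members and the gene lists were chosen with earlier results of these data known. Named were all members, other keratins past the filter, their pseudogenes with at least 10 counts, up to 4 genes per list and experiment with the largest changes, and the 5 genes nearest to KRT16. A few symbols named in the text (CDK16, KRT5, KRT12 and the defining markers at or near 0) were added as checks. A further marker gene and a further sequence window are not reported here.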

Additional observations from a re-analysis of the deposited data

How the results depend on the processing

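Of the log2 fold changes of members under alternatives, 456 values in all without KRT6A where both libraries had 0 counts, 314 stayed within the counting interval of the value given and 142 moved beyond it. Some of the smaller changes changed sign. KRT8 at 5 μM Reb went from 0.58 to -0.11 with library totals. KRT18 with CDK16-sh1 went from 0.09 to -0.20 against genes of like GC content. Of 124 counts of members past a threshold, 107 stayed within 1.5 times. With a 1.5-fold threshold, CDK16-sh1 had 1 member lower and 1 higher. With a 4-fold threshold, 2 were lower with CDK16-sh2, 2 lower with CDK16-sh2 than with CDK16-sh1, 0 higher at 1 μM Reb, 1 lower at 5 μM, and between the doses 1 lower and 2 higher. Against genes of like GC content (chosen after the data were seen), 1 was lower with CDK16-sh1, 3 lower with CDK16-sh2 than with CDK16-sh1, 1 lower and 5 higher at 5 μM, and 1 lower between the doses. With library totals or the authors' RPKM with 0.1 added, 4 were lower and 2 higher between the doses. Over all genes, library totals gave 1701 lower and 152 higher with CDK16-sh2, against 1166 and 336. For CDK16-sh2 against CDK16-sh1 they gave 1851 and 631, against 1327 and 998, and between the doses 6977 and 1616, against 4041 and 3570. The pooled hairpin test called 0 of all genes in each of its alternatives, which says nothing about stability. Apart from the thresholds and the scalings, whose construction sets the counts, the cause was not tested. No paired analysis was possible because each condition had 1 library, and for the same reason no library could be left out. Depth limits KRT6A, KRT16 and KRT17 in the knockdown experiment.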

Other observations

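Of 21 keratin pseudogenes with at least 10 counts in a library of the Reb experiment, 14 were at least 2-fold higher and 3 at least 2-fold lower at 5 μM than with DMSO, with a median log2 fold change of 2.23, where 23.6% and 27.2% of all genes tested were. Entry into this list needed 10 counts in only 1 library, the one at 5 μM included, so the count is a description. Those with the most counts at 5 μM beside KRT8P12, KRT8P33 and KRT8P3 follow. With DMSO, 1 μM and 5 μM Reb, KRT8P50 had 8, 4 and 152 counts, KRT8P11 had 2, 4 and 124, and KRT8P46 had 14, 15 and 121. KRT18P12 had 8, 15 and 105 counts and KRT18P31 had 6, 2 and 86. The KRT8 pseudogene that shares most stretches of 100 bases with KRT8, KRT8P3, had 281, 302 and 200 counts. These counts are unscaled, so they give no direction for KRT8P3. The 5 μM library held 37655548 counts against 50303269 with DMSO, and its TMM factor was 0.718 against 1.16. KRT8 itself had 52200, 60961 and 36189 counts and KRT18 had 19151, 19694 and 6021. Whether these counts come from the pseudogenes' own loci was not tested.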
